A study of Mus musculus with 30 samples.

Results

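The NF-kB family members and inhibitors described here are 10 genes measured by RNA-seq in J774A.1 cells, a mouse macrophage-like line. They comprise 4 subunits (Nfkb1, Nfkb2, Rela and Relb), 3 IkB proteins (Nfkbia, Nfkbie and Nfkbiz), and Tnfaip3, Malt1 and Bcl10, out of 54146 genes in the count table. They were picked by name, with the response of Malt1 to interferon-gamma (IFNG) in knockout cells already in view. Each of the 10 had enough counts to enter every test.

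The libraries came from 3 wild-type clones (WT1, WT2 and WT3) and 2 knockout clones (KO1 and KO2). In both KO clones CRISPR had removed both copies of B2_Mm2.Dicer1, a B2 SINE that sits within intron sequence of Dicer1 on chromosome 12. Cells were left untreated (UT) or were given IFNG at 100 ng/mL for 4 h. Each clone gave 3 libraries in each condition, 30 in all. The KO clones had been electroporated with Cas9 and guide RNAs and the WT clones had not, so the deletion and the electroporation cannot be told apart. Each line is 1 clone, and the 3 libraries of a clone are not separately edited clones. The labels do not say whether the 3 libraries came from separate cultures. Within a clone, p-values thus measure the spread between libraries, which may be technical. In tests that pool clones without a clone term, that spread also holds differences between clones, while libraries still count as the replicates.

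NF-kB transcription factors are dimers of Rel-domain proteins. In resting cells most dimers are held in the cytoplasm by IkB proteins, until IkB kinase marks these for destruction and the dimers enter the nucleus. Several NF-kB targets, among them Nfkbia and Tnfaip3, encode inhibitors of the same pathway. Bcl10 and Malt1 form, with CARD proteins, a scaffold that leads from surface receptors to IkB kinase, and Malt1 is also a protease. In macrophages NF-kB drives inflammatory genes, and IFNG is a signal that activates these cells.

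Counted fragments per library ranged from 15566122 to 37992642. Dicer1, the gene with the deleted intronic element, was lower in untreated KO1 than in WT (log2FC = -0.74, adjusted p = 4.13e-05). In untreated KO2 the Dicer1 difference from WT was -0.18 (adjusted p = 0.179). With IFNG, Dicer1 rose in WT1, WT2 and WT3 (log2FC = 0.36, 0.32 and 0.40). It did not pass in KO1 (log2FC = 0.10, adjusted p = 0.193) or KO2 (log2FC = -0.07, adjusted p = 0.338). The KO minus WT difference of its response was -0.36 (adjusted p = 5.53e-05). After IFNG, Dicer1 was lower in KO than in WT (log2FC = -0.80, adjusted p = 1.35e-05). Dicer1 lies on chromosome 12, whose median gene was shifted by -0.35 in untreated KO1 and by no more than 0.02 either way in the other clones. The part of that shift in the Dicer1 values was not tested. Irf1, a primary IFNG target, rose with IFNG in pooled WT (log2FC = 5.10) and pooled KO cells (log2FC = 5.13). All 8 macrophage markers were at 1 CPM or more in every group, but 5 of them differed between untreated KO and WT. Csf1r, Itgam and Spi1 were higher in KO by 0.22, 0.30 and 0.35 on the log2 scale, Adgre1 was higher (log2FC = 2.39, adjusted p = 0.00164) and Mertk was lower (log2FC = -1.10, adjusted p = 0.000288). Their part in the results was not tested. In addition, the T cell, B cell and epithelial markers were under 1 CPM in every group. Of 3 fibroblast markers, only Pdgfra reached 1 CPM in some group, the summed level of the 3 ran from 0.331 to 2.92 CPM, and its part in the results was not tested. The median gene of chromosome 17 was also shifted in some clones, as described with Nfkbie.

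The stretches upstream of the start site are shown for 3 genes whose levels after IFNG are described further on, a subunit and 2 inhibitors. In the RefSeq (GRCm38.p6) table of promoters used here, 6 of the 10 genes were matched, with 9 start sites in all. Nfkb1, Relb, Nfkbiz and Malt1 were not matched in that table. The 250 bases before each start site were searched on both strands for the NF-kB decamer consensus, for the gamma-activated sequence (GAS) TTCNNNGAA and for the core of the interferon-stimulated response element (ISRE). Each sequence below runs 5′ to 3′ on the gene's strand, with motif matches in capitals. The Nfkb2 stretch lies at chr19:46304487-46304736 on the plus strand, the Nfkbia stretch at chr12:55492648-55492897 on the minus strand, and the Nfkbie stretch at chr17:45555450-45555699 on the plus strand.
Nfkb2: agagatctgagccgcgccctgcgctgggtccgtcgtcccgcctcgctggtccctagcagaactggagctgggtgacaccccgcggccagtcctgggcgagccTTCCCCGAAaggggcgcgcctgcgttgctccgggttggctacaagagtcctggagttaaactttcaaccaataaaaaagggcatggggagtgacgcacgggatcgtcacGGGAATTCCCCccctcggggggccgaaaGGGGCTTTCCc
Nfkbia: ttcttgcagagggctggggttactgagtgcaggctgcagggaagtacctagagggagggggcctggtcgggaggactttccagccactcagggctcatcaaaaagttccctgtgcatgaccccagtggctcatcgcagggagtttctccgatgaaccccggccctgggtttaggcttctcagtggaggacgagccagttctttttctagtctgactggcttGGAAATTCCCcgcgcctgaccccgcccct
Nfkbie: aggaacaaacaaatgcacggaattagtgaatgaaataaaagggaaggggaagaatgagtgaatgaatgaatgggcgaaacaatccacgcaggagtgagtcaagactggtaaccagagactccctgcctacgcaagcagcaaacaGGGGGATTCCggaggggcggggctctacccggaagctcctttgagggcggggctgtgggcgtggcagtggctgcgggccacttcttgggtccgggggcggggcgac

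In the Nfkb2 stretch the capitals mark, from left to right, a GAS sequence and then NF-kB decamers, the first group being decamers that overlap each other on both strands. The capitals in Nfkbia and Nfkbie each mark 1 NF-kB decamer. The decamer stood upstream of 7 of the 9 start sites, in 5 of the 6 genes matched, all but Rela. Per start site, a match was present in 7.25% of the 32851 mouse start sites of the table. The GAS sequence was found for Nfkb2 alone, and in 7.02% of all start sites. The ISRE core was found for none of the 6 genes, and in 2.98% of all start sites. Such a match is a stretch of letters and does not show that a factor binds there.

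Levels were compared between genes as CPM per kilobase of exon length. Nfkbia, which encodes the inhibitor IkB-alpha, was the most abundant of the 10 in every group, with group means from 51.4 to 117 CPM per kilobase. Rela was next in most groups, between 26.8 and 34.6 CPM per kilobase. Tnfaip3 was the least abundant in every untreated group, at 0.444 to 2.29 CPM per kilobase. The values that follow are CPM, counts scaled to library size with TMM factors, and compare 1 gene across libraries. In bulk RNA, fewer expressing cells and less RNA per cell cannot be told apart.

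**Figure D1:**
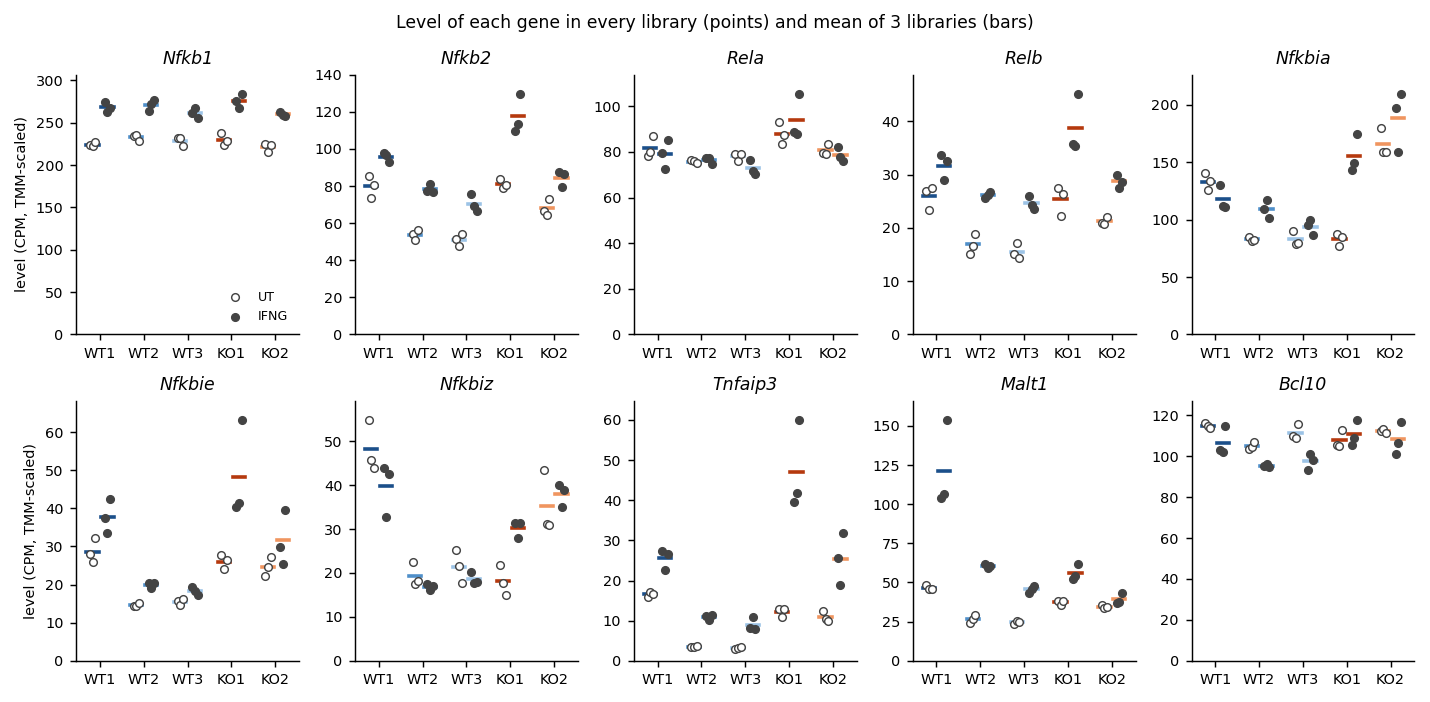
Level of each of the 10 genes in CPM (y axis, from 0) in every library, by clone (x axis), with open points for untreated and filled points for IFNG-treated libraries and bars for the mean of 3 libraries. Nfkb1, Rela and Bcl10 lie at similar heights in all clones, whereas untreated Tnfaip3 runs from 3.05 to 17.2 CPM and WT1 is often apart from WT2 and WT3.

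To ask whether the deletion went with a different resting level, untreated KO and WT libraries were compared. None of the 10 genes passed the threshold in edgeR's quasi-likelihood test (adjusted p under 0.05), where 26.6% of all genes tested did. At an unadjusted p under 0.05 the count was 1 gene, Rela, beside 37.9% of all genes. DESeq2 called 0 of the 10, and its share of all genes is not given here. KO and WT libraries overlapped for all 10 genes, while 10.1% of genes had no overlap. Among the 5 clones, however, 9 of the 10 differed, all but Nfkb1 (F test, 73.2% of all genes). Even among the 3 WT clones 8 of the 10 differed, all but Nfkb1 and Rela (59.5% of all genes).

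The result turned on the clone WT1. Without WT1, 7 of the 10 genes passed in untreated KO against WT, namely Nfkb2, Rela, Relb, Nfkbia, Nfkbie, Tnfaip3 and Malt1, each higher in KO. Over all genes the count was then 6472 of 13552, against 3689 of 13886 with all clones. Without WT2 or WT3 the count was 0. Without KO1 it was 1 (Nfkbia), and without KO2 it was 1 (Rela). The log2FC of Tnfaip3 was 0.54 ± 0.43 (SE) with all clones and 1.78 without WT1 (adjusted p = 1.17e-09). The log2FC of Malt1 was 0.13 ± 0.17 (SE) with all clones and 0.50 without WT1 (adjusted p = 3.63e-06). Each KO clone was also set against WT on its own, where 1 of the 10 passed for KO1 (Rela, 25.7% of all genes) and 1 for KO2 (Nfkbia, 11.6%). KO1 and KO2 differed from each other in 4 (Nfkb2, Relb, Nfkbia and Nfkbiz, 23.2% of all genes). With counts summed per clone, so that the clone was the replicate, 1 of 16189 genes passed and none of the 10 did.

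**Figure D2:**
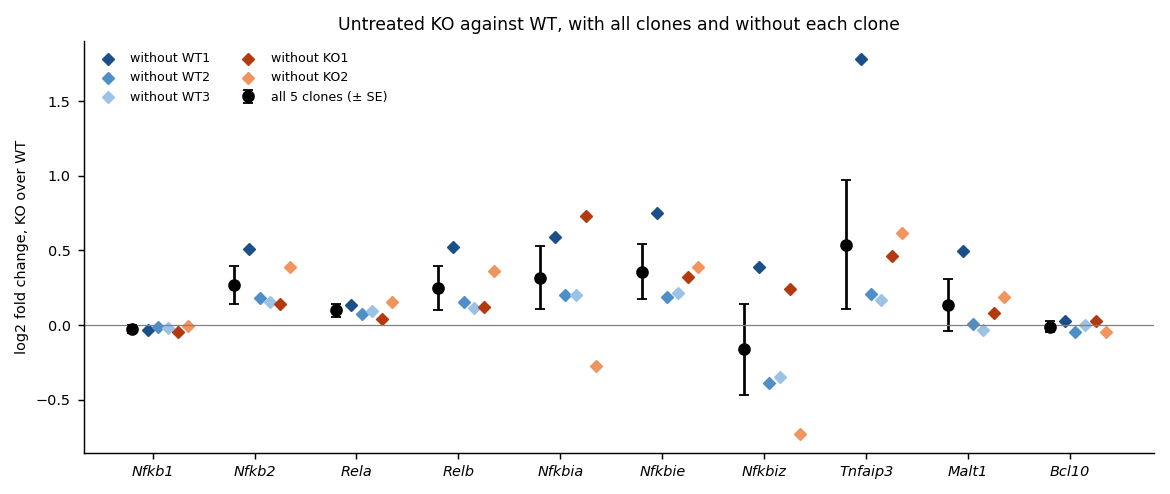
Log2 fold change of each gene in untreated KO over WT libraries (y axis), with black points and SE bars for all 5 clones and coloured diamonds for fits that leave out 1 clone. The diamonds without WT1 lie above the black points for 9 of the 10 genes, and those for Tnfaip3 reach 1.78.

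Among the DNA-binding subunits, Nfkb1 (chr3:135584655-135691547, minus strand, mm10) encodes the p105 precursor of p50. Its untreated CPM values were 223, 222 and 227 in WT1, 235, 235 and 228 in WT2, and 232, 232 and 222 in WT3. They were 237, 223 and 228 in KO1 and 225, 215 and 223 in KO2. The libraries of the 5 clones all lay within 215 to 237, and the F test among the 5 clones gave an adjusted p of 0.468. After IFNG the values were 262 to 275 in WT1, 263 to 277 in WT2, 255 to 268 in WT3, 268 to 284 in KO1 and 258 to 263 in KO2. In every clone all IFNG libraries were above all untreated libraries. The log2FC lay between 0.20 and 0.30 in the 5 clones, the narrowest range of the 10 genes.

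Nfkb2 (chr19:46304737-46312090, plus strand) encodes the p100 precursor of p52, and its upstream stretch is printed above. Untreated values were 85.3, 73.6 and 80.8 CPM in WT1 but 54.0, 50.9 and 56.6 in WT2 and 51.4, 47.9 and 53.9 in WT3. In the KO clones they were 83.9, 79.2 and 80.7 (KO1) and 66.3, 64.6 and 72.8 (KO2). KO1 overlapped WT1, and KO2 lay between WT1 and the other WT clones. KO1 was higher than KO2 (log2FC = 0.25 ± 0.050 SE, adjusted p = 0.00206). IFNG values were 93.2 to 97.9 in WT1, 77.0 to 80.9 in WT2, 66.5 to 76.0 in WT3, 109.9 to 129.8 in KO1 and 79.7 to 87.6 in KO2. All IFNG libraries were above the untreated ones of their clone, with a log2FC from 0.25 (WT1) to 0.56 (WT2 and KO1).

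Relb (chr7:19606217-19629438, minus strand) encodes the usual partner of p52, and its clones stood in much the same order as those of Nfkb2. Untreated values were 23.4 to 27.5 CPM in WT1, 15.1 to 18.9 in WT2, 14.3 to 17.2 in WT3, 22.2 to 27.5 in KO1 and 20.8 to 22.1 in KO2. WT2 and WT3 overlapped each other and lay under the other 3 clones. Relb was higher in KO1 than in KO2 (log2FC = 0.24 ± 0.078 SE, adjusted p = 0.0331), but this call was lost without KO1 library a or c or KO2 library a or b (adjusted p from 0.0881 to 0.130). IFNG values were 28.97 to 33.6 in WT1, 25.7 to 26.7 in WT2, 23.6 to 26.1 in WT3, 35.3 to 45.2 in KO1 and 27.5 to 30.02 in KO2. The IFNG log2FC was 0.28 in WT1 and 0.43 to 0.67 in the other clones.

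Rela (chr19:5637483-5648130, plus strand) encodes p65, the main activating subunit. Its untreated values were 75.0 to 86.9 CPM over the 9 WT libraries, 83.4 to 93.0 in KO1 and 79.3 to 83.4 in KO2. Untreated KO1 was higher than WT (log2FC = 0.15 ± 0.052 SE, adjusted p = 0.0458). That call was lost without WT2 (adjusted p = 0.120), without WT3 (adjusted p = 0.101), and without KO1 library a (adjusted p = 0.228) or c (adjusted p = 0.123). After IFNG the values were 70.2 to 85.2 in WT and 76.1 to 106 in KO. Treated and untreated libraries overlapped in all 5 clones, with a log2FC from -0.09 to 0.13.

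The IFNG response of each clone and its difference by genotype were used in choosing these genes. Values and counts past the threshold in those contrasts, and in the response among WT clones, are thus descriptions. They are given without p-values, except among the flagged results, where the p-values are not read as tests. In WT1, 6 of the 10 genes were past the threshold (21.2% of all genes tested), in WT2 8 (34.5%) and in WT3 8 (36.1%). In KO1 there were 8 (29.4%) and in KO2 4 (27.1%). Over the pooled clones there were 5 in WT (28.6%) and 6 in KO (30.7%). The WT1 count fell to 3 without its untreated library b. The pooled WT count was 8 with clone as a block and 8 without WT1, but 3 without WT2 and 2 without WT3. In each of the 5 clones all IFNG libraries of Nfkb1, Nfkb2, Relb, Tnfaip3 and Malt1 lay above all untreated ones, and those of Rela overlapped them. The share of all genes separated in this way within a clone was not computed, so nothing is read from that number of genes.

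**Figure D3:**
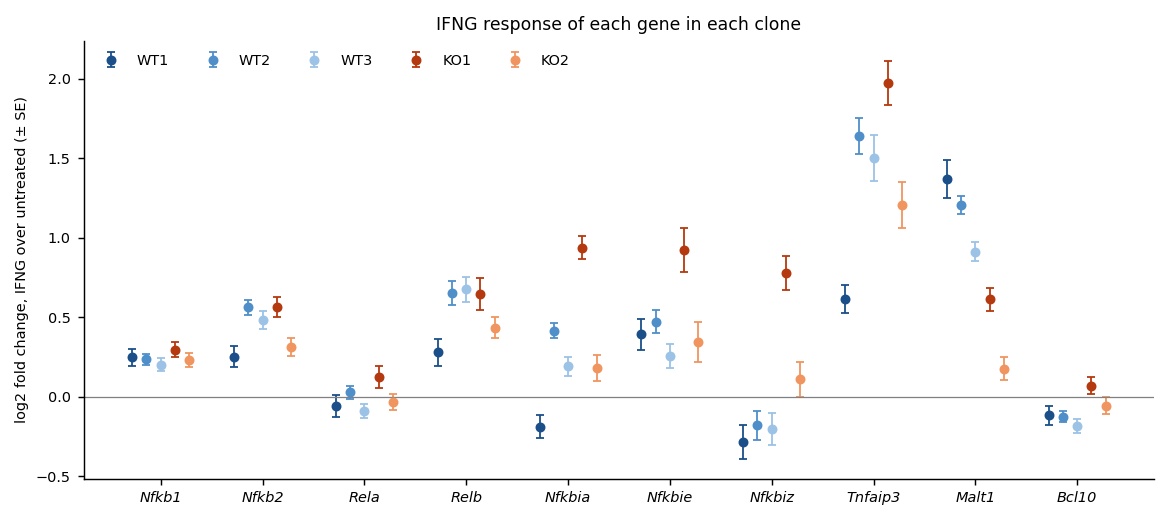
Log2 fold change of IFNG-treated over untreated libraries with SE bars (y axis) for each gene (x axis) in each of the 5 clones, 3 against 3 libraries per clone. The Malt1 values are larger in the 3 WT clones (0.91 to 1.37) than in KO1 (0.61) and KO2 (0.18), whereas Nfkbia, Nfkbie, Nfkbiz and Tnfaip3 are highest in KO1.

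The classical inhibitor gene Nfkbia (chr12:55489410-55492647, minus strand) varied by clone. Untreated values were 141, 126 and 133 CPM in WT1, 84.6, 81.1 and 82.5 in WT2, and 89.8, 79.2 and 79.5 in WT3. They were 87.1, 77.0 and 84.7 in KO1 and 179.8, 159 and 159 in KO2. KO2 was the highest clone, WT1 the next, and WT2, WT3 and KO1 overlapped. KO1 was lower than KO2 (log2FC = -1.01 ± 0.057 SE, adjusted p = 8.2e-09), although both carry the deletion. KO2 was higher than WT (log2FC = 0.73 ± 0.19 SE, adjusted p = 0.0214). The KO2 call was lost without WT2 (adjusted p = 0.0871), without WT3 (adjusted p = 0.0805) and without any 1 KO2 library (adjusted p from 0.0707 to 0.112). KO1 did not pass against WT (log2FC = -0.28 ± 0.20 SE, adjusted p = 0.332).

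After IFNG, Nfkbia values were 130.2, 112 and 111 CPM in WT1, 109, 117 and 101 in WT2, and 95.8, 99.9 and 86.4 in WT3. They were 143, 149 and 174 in KO1 and 197, 159 and 209.6 in KO2. It was the only one of the 10 genes whose IFNG-treated KO libraries did not overlap the WT ones, with KO higher, against 8.59% of genes without overlap. The IFNG log2FC was -0.19 ± 0.072 (SE) in WT1, 0.41 ± 0.048 in WT2, 0.19 ± 0.058 in WT3, 0.94 ± 0.072 in KO1 and 0.18 ± 0.082 in KO2. Among the 3 WT clones alone this response ran from -0.19 to 0.41, given as a description.

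Nfkbia lies on chromosome 12, as does the deleted element. Over 435 chromosome 12 genes, the median shift of log2(CPM + 0.5) from WT was -0.35 in untreated KO1 and -0.36 in IFNG-treated KO1, and between -0.02 and 0.02 in every other clone. The Nfkbia shift itself in KO1 was -0.24 untreated and 0.54 after IFNG. When libraries were scaled on chromosome 12 genes only, the untreated Nfkbia difference of KO1 from WT moved from -0.28 to 0.09 (adjusted p = 0.723). Under the same scaling the KO1 to KO2 difference was -0.63 (adjusted p = 3.5e-08). However, that scaling let 10509 of 13826 genes pass in KO1 against KO2, against 3207 in the main test. In KO1 against WT it let 8896 of 14239 pass, against 3658. A pass under it is thus not particular to Nfkbia.

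**Figure D4:**
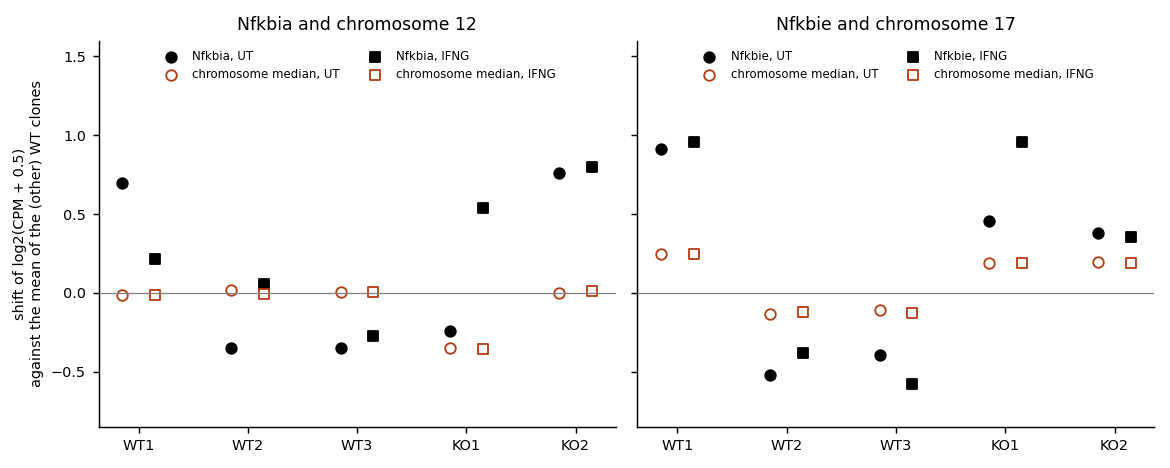
Shift of log2(CPM + 0.5) from the WT mean, taken over the other two WT clones where the clone is itself WT (y axis), by clone (x axis), for Nfkbia and Nfkbie (filled) and for the median gene of their chromosomes (open), untreated (circles) and IFNG-treated (squares). The chromosome 12 median is near -0.35 in KO1 alone, and the chromosome 17 median is 0.19 to 0.24 in WT1, KO1 and KO2 and -0.13 to -0.11 in WT2 and WT3.

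Nfkbie (chr17:45555716-45563169, plus strand) encodes IkB-epsilon. Untreated values were 27.9, 25.9 and 32.2 CPM in WT1, 14.4, 14.3 and 15.02 in WT2, and 15.7, 14.6 and 16.2 in WT3. They were 27.6, 24.1 and 26.3 in KO1 and 22.1, 24.6 and 27.1 in KO2. WT1 and both KO clones overlapped each other and lay above WT2 and WT3. The chromosome 17 median over 623 genes was shifted in the same clones, by 0.24 in untreated WT1, 0.19 in KO1 and 0.20 in KO2, against -0.13 in WT2 and -0.11 in WT3. The shifts of Nfkbie were larger than these, at 0.92, 0.45, 0.38, -0.52 and -0.39 in the same order, and the part of the chromosome shift in them was not tested. After IFNG, Nfkbie reached 33.6 to 42.4 in WT1, 19.2 to 20.4 in WT2, 17.2 to 19.3 in WT3 and 25.4 to 39.6 in KO2. In KO1 the IFNG values were 40.4, 41.4 and 63.1. The log2FC in KO1 was 0.92 and was 0.68 without the highest library, against 0.26 to 0.47 in the other clones.

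Nfkbiz (chr16:55811375-55838899, minus strand) encodes IkB-zeta, a nuclear IkB protein that acts as a cofactor on some NF-kB targets. Untreated values were 54.8, 45.8 and 43.8 CPM in WT1, 17.4 to 22.6 in WT2, 17.6 to 25.2 in WT3, 15.01 to 21.7 in KO1, and 43.4, 31.2 and 30.9985 in KO2. KO1 was lower than KO2 (log2FC = -0.97 ± 0.13 SE, adjusted p = 5.3e-05). After IFNG the values were 32.8 to 44.0 in WT1, 16.2 to 17.5 in WT2, 17.8 to 20.2 in WT3, 28.03 to 31.5 in KO1 and 34.9 to 40.1 in KO2. Only in KO1 did all IFNG libraries lie above all untreated ones. The log2FC was -0.28, -0.18 and -0.20 in WT1, WT2 and WT3, 0.78 in KO1 and 0.11 in KO2. The KO minus WT difference of response was 0.63 ± 0.14 (SE), 0.34 without KO1 and 0.98 without KO2.

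Tnfaip3 (chr10:19000910-19015657, minus strand) encodes A20, a ubiquitin-editing enzyme that shuts off NF-kB signalling. It had the widest range between clones. Untreated values were 15.8, 17.2 and 16.7 CPM in WT1, 3.38, 3.50 and 3.77 in WT2, and 3.05, 3.08 and 3.50 in WT3. They were 12.96, 10.9 and 12.8 in KO1 and 12.3, 10.5 and 9.97 in KO2. WT1 was the highest and differed 5.15-fold in mean level from WT3, the lowest, while KO1 and KO2 overlapped in between. After IFNG the values were 27.3, 22.7 and 26.5 in WT1, 11.2, 10.2 and 11.3 in WT2, and 8.15, 10.9 and 7.98 in WT3. In the KO clones they were 39.5, 41.7 and 59.97 (KO1) and 25.6, 18.9 and 31.9 (KO2). IFNG libraries were above untreated ones in each clone.

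The Tnfaip3 response was 0.61 ± 0.088 (log2FC, SE) in WT1, 1.64 ± 0.11 in WT2, 1.502 ± 0.14 in WT3, 1.97 ± 0.14 in KO1 and 1.21 ± 0.15 in KO2. WT1, with the highest untreated level, had the lowest response. Among the WT clones the response ran from 0.61 to 1.64, given as a description. The KO minus WT difference of response was 0.52 ± 0.20 (SE) over all clones and 0.03 without WT1.

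Malt1 (chr18:65430962-65478823, plus strand) encodes the paracaspase of the CARD, Bcl10 and Malt1 complex, and its IFNG response was in view when the genes were picked. Untreated values were 48.3, 45.9 and 45.7 CPM in WT1, 24.1, 26.6 and 29.2 in WT2, and 23.3, 25.2 and 24.9 in WT3. They were 38.5, 35.5 and 38.3 in KO1 and 35.5, 33.9 and 34.2 in KO2. The KO clones lay between WT1 and the other WT clones, and WT2 and WT3 overlapped. KO1 and KO2 did not pass against each other (log2FC = 0.11 ± 0.058 SE, adjusted p = 0.200), nor did KO against WT (adjusted p = 0.609).

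After IFNG, Malt1 values were 104, 107 and 154 CPM in WT1, 61.8, 59.2 and 60.8 in WT2, and 43.5, 46.1 and 47.6 in WT3. In the KO clones they were 52.1, 54.3 and 61.9 (KO1) and 36.8, 37.3 and 43.3 (KO2). All IFNG libraries were above the untreated ones of their clone, also in KO2. The ratio of the IFNG mean to the untreated mean was 2.61 in WT1, 2.27 in WT2, 1.87 in WT3, 1.497 in KO1 and 1.14 in KO2. As log2FC this was 1.37 ± 0.12 (SE), 1.21 ± 0.059, 0.91 ± 0.058, 0.61 ± 0.070 and 0.18 ± 0.071 in the same order. In WT1 the log2FC was 1.18 without the library at 154 CPM.

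The KO minus WT difference of the Malt1 response was -0.80 ± 0.11 (SE), and lay between -1.01 (without KO1) and -0.60 (without KO2) when 1 clone was left out. The choice of Malt1 used this contrast, so nothing is read from the 2 of 10 genes past the threshold in it (Malt1 and Nfkbiz, with 1.02% of all genes tested). The levels after IFNG did not separate by genotype. WT1 was highest, WT2 and KO1 overlapped, and KO2 was lowest, just under WT3. KO against WT after IFNG gave a log2FC of -0.67 ± 0.26 (SE), which was not among the 4 of 10 genes past the threshold there (23.9% of all genes), namely Rela, Nfkbia, Nfkbie and Tnfaip3. That count was 8 without WT1, 1 without WT2, 1 without KO1 and 0 with counts summed per clone. It is a description too, as the genes were picked with the response in view.

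Over the 10 group means of log2(CPM + 0.5), the 3 of 11579 genes with the pattern most like that of Malt1 were Slc25a28 (r = 0.94), Ikbke (r = 0.93) and Tinf2 (r = 0.93). These correlations share libraries, take no account of the size of a change and are a description. As group means turned back from the log2 scale, Slc25a28 ran only from 16.7 to 21.2 CPM. In KO1 it was 18.6 CPM untreated and 18.5 CPM after IFNG. Mean Ikbke levels were 94.5 CPM in WT1, 58.1 in WT2, 57.4 in WT3, 66.5 in KO1 and 61.03 in KO2 untreated. After IFNG they were 138, 93.4, 93.9, 108 and 86.1 CPM in the same order.

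Bcl10 (chr3:145922804-145934356, plus strand) encodes the adaptor that binds Malt1. Its untreated values were 104 to 116 CPM over the 9 WT libraries, 105 to 113 in KO1 and 111 to 113 in KO2. The 5 clones differed (adjusted p = 0.0164), but not without WT2 library a (adjusted p = 0.0832) or b (adjusted p = 0.0515), and the highest clone mean was only 1.09 times the lowest. IFNG values were 93.5 to 115 in WT, 106 to 118 in KO1 and 101 to 117 in KO2. IFNG libraries were below all untreated ones in WT2 and WT3 and overlapped them in WT1, KO1 and KO2. The log2FC was -0.12, -0.12 and -0.18 in WT1, WT2 and WT3, 0.07 in KO1 and -0.06 in KO2.

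A further 59 genes of the pathway were taken from 6 lists, of which Cyld, Rbck1 and Map3k14 stand in a pair of lists. In pooled WT cells 30 of the 52 that could be tested passed with IFNG, 26 higher and 4 lower, with a median log2FC of 0.19. That was 57.7%, beside 28.6% of all genes. In pooled KO cells 31 of 53 passed, 27 higher and 4 lower, with a median of 0.20, which was 58.5% beside 30.7% of all genes. These lists were drawn up with earlier results of the data known.

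Of the other subunits and IkB proteins, 3 of 4 rose and 1 fell in pooled WT cells. Bcl3, a nuclear IkB protein, rose 5.91-fold (log2FC = 2.56 ± 0.11 SE, adjusted p = 2.88e-13). Nfkbid, another nuclear IkB gene, fell by 0.60 on the log2 scale (adjusted p = 2.16e-06). Rel rose by 0.17 (adjusted p = 0.00792) but did not pass without WT1 (adjusted p = 0.0722) or without WT3 (adjusted p = 0.0619). Nfkbib rose by 0.24 (adjusted p = 0.0313) but did not pass without WT2 (adjusted p = 0.209) or WT3 (adjusted p = 0.0745).

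Among 11 kinases and their partners, 5 rose and 0 fell in pooled WT. Ripk1, which relays signals from TNF receptors, rose 1.91-fold (adjusted p = 1.42e-11). Ikbke, an IkB kinase relative also found in interferon induction, rose 1.55-fold (adjusted p = 0.00238). Chuk and Tab3 rose by 0.17 and 0.20 on the log2 scale, and both calls were lost without WT3 (adjusted p = 0.102 and 0.0659), as was that of Chuk without WT2 (adjusted p = 0.104).

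Of 17 adaptors, ubiquitin ligases and deubiquitinases, 8 rose and 1 fell in pooled WT. Rnf31, the catalytic subunit of the linear ubiquitin ligase, rose 2.18-fold (adjusted p = 6.24e-15), with mean IFNG levels of 30.4 to 32.03 CPM in all 5 clones. Birc3 and Birc2, the cIAP ubiquitin ligases, rose 1.95-fold (adjusted p = 9.86e-06) and 1.63-fold (adjusted p = 4.24e-08). Tnip2, a partner of A20, rose by 0.45 on the log2 scale (adjusted p = 0.000128).

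Card9, a CARD protein that pairs with Bcl10, fell by 0.15 on the log2 scale in pooled WT (adjusted p = 0.0273) and not without WT3 (adjusted p = 0.386). Card10 and Card14 were under 0.1 CPM in every group mean. Of 6 other Malt1 substrates, 3 rose and 0 fell. Cyld, a deubiquitinase, rose by 0.41 (adjusted p = 1.22e-06), Rbck1 by 0.31 (adjusted p = 3.2e-05) and Rc3h2 by 0.25 (adjusted p = 0.00841).

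Among 20 known NF-kB target genes, 15 could be tested in pooled WT, of which 9 rose and 1 fell, with a median log2FC of 1.27. Csf1, the macrophage growth factor, rose 12.5-fold (adjusted p = 9.58e-11) and the dendritic cell marker Cd83 8.69-fold (adjusted p = 3.34e-12). The adhesion molecule Icam1 rose 7.24-fold (adjusted p = 5.61e-16). The neutrophil chemokine Cxcl2 fell, to 0.119 times its untreated level (adjusted p = 6.5e-06). The called targets did not all move in 1 direction.

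**Figure D5:**
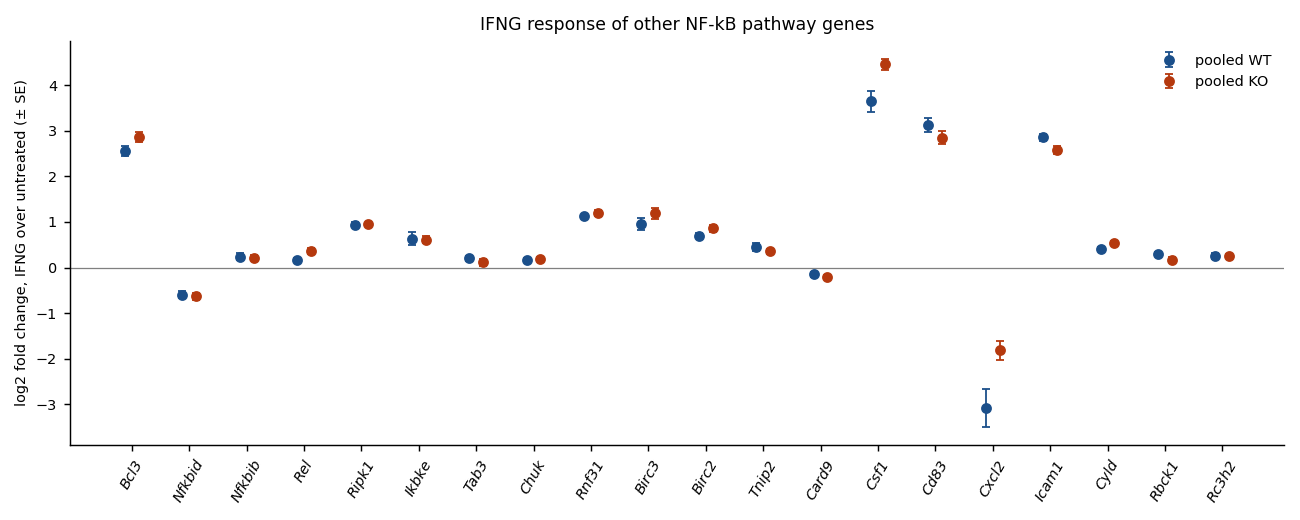
Log2 fold change of IFNG-treated over untreated libraries with SE bars (y axis) in pooled WT (blue) and pooled KO cells (red) for the other pathway genes named for their pooled WT response (x axis). Csf1, Cd83, Icam1 and Bcl3 are the highest in both genotypes, and Cxcl2 is the lowest, at -3.08 in WT and -1.81 in KO.

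Tested as an interaction over all 30 libraries, the IFNG response differed between KO and WT in 3 of the 54 other pathway genes tested. That was 5.6%, beside 1.02% of all genes. All 3 are targets named here after their values were seen. The lists were drawn up with earlier results of the data known, so the share is a description. The difference was 1.23 ± 0.18 (log2, SE) for Cxcl2 (adjusted p = 0.000164), 1.12 ± 0.21 for Ptgs2 (adjusted p = 0.00313) and 0.57 ± 0.13 for Tnf (adjusted p = 0.0233). This test had a term for the level of each clone but a shared response for the clones of a genotype, with libraries as the replicates. Over all genes 151 passed it, but 21 without KO1 and 37 without WT2. Values without each clone are not given here for these 3 genes. Tnf lies on chromosome 17, whose median after IFNG was shifted by 0.24 in WT1, 0.19 in KO1, 0.19 in KO2, -0.12 in WT2 and -0.13 in WT3. The untreated shifts are given with Nfkbie, and the part of these shifts in the Tnf response was not tested. Among the WT clones alone, 8 of 54 (14.8%, beside 2.3% of all genes) differed in their response (Birc3, Tnip3, Tbk1, Zc3h12a, Ccrl2, Csf1, Icam1 and Ier3).

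In untreated KO against WT, 16 of the 53 other pathway genes tested passed, 8 higher and 8 lower, with a median log2FC of 0.01. That was 30.2%, near the 26.6% of all genes. Of the 16 targets tested, 7 were higher (Icam1, Ccl2, Tnf, Bcl2l1, Sod2, Plaur and Il1rn) and 2 lower (Bcl2a1b and Csf1). With KO1 set against WT on its own Tnf did not pass. With KO2 on its own Icam1, Bcl2l1, Bcl2a1b and Csf1 did not. The median log2FC of the 16 targets was -0.07 for KO1 and 0.41 for KO2. Of the genes just named, Ccl2, Tnf and Bcl2a1b were lower in KO1 than in KO2, and Icam1, Sod2 and Il1rn were higher. Tnf and Sod2 were higher by 0.89 and 0.64 on the log2 scale and lie on chromosome 17, whose untreated median was shifted by 0.19 in KO1 and 0.20 in KO2. Il1rn, the interleukin 1 receptor antagonist, was 2.88-fold higher in KO (log2FC = 1.52, adjusted p = 0.000122). Its log2FC was 0.76 without KO1 and 2.02 without KO2, and it was higher in KO1 than in KO2 (log2FC = 1.26, adjusted p = 3.32e-06). Tax1bp1, an adaptor for A20, was lower (log2FC = -0.48 ± 0.041 SE, adjusted p = 1.13e-06), with clone means of 259.8 to 288 CPM in WT and 194 to 202 in KO. Bcl2a1b and Csf1 were lower (log2FC = -1.997 and -1.07, adjusted p = 0.0123 and 0.013), and neither passed without KO1 (adjusted p = 0.192 and 0.191). Bcl2a1b has close paralogs that can share reads, so its value is uncertain. Nfkbid was higher (log2FC = 0.27, adjusted p = 0.0144), and Rel, Tab1, Ripk1, Ikbkg and Cyld were lower by 0.13 to 0.22 on the log2 scale (adjusted p from 0.0103 to 0.0303). Each of these small differences was lost when some clone was left out, with adjusted p up to 0.369. With counts summed per clone, none of Il1rn, Tax1bp1, Bcl2a1b, Csf1, Nfkbid, Rel, Tab1, Ripk1, Ikbkg and Cyld passed. That result is not given here for the other targets named above.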

How the data were processed

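Per the paper's methods and the file header, the authors used BBDuk for trimming and HISAT2 (2.1.0) for alignment to mm10, kept uniquely aligned fragments, merged technical replicates with SAMtools (1.10) and counted fragments per gene with featureCounts (1.6.2, reversely stranded). The deposited values are raw counts for 54146 genes, 54079 of them with a symbol. The header names a Gencode annotation and the methods RefSeq, and a fragment over overlapping genes was counted for each. The columns name the clone and condition but no replicate number, so the 3 libraries of a group are called a, b and c as names only. Columns labelled wtc1 and wtc3 were taken as WT2 and WT3, as the headers of the deposited WT2 and WT3 tables list them. Those labelled wt1 were taken as WT1. Another 13 tables were not read, among them the authors' own comparisons of fold changes and p-values.

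Genes were filtered with filterByExpr (minimum count of 10), scaled with TMM factors and tested with edgeR (4.0.16, R 4.3.3) by the quasi-likelihood test, with Benjamini-Hochberg adjustment over all genes and a threshold of 0.05. All adjusted p-values are from edgeR unless DESeq2 (1.42.0) is named. SE is the log2FC over the square root of F. Shifts and likeness used log2(CPM + 0.5). Levels and figures were computed with Python (3.11.15), pandas (2.3.3), numpy (2.4.6) and matplotlib (3.10.9). The 16 comparisons were refitted under 183 alternatives. On simulated counts for untreated KO against WT, with 200 of 13894 genes changed by a log2FC of 1, edgeR recovered 200 with 6 false calls. For the IFNG response in WT1 it recovered 199 of 200 among 14097 genes. The simulated libraries varied independently, with no differences between clones, and the changes were planted in well-counted genes. The simulation therefore does not measure false calls where clones differ, as they do in these data. Library pairs of a group differed beyond counting noise (chi-square per degree of freedom from 1.95 to 19.5 over 30 pairs), so none was taken as a copy of another, although separate preparations of 1 RNA could differ as much.

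The 10 genes and the pathway lists were chosen with earlier results of these data known. Named from each list were up to 4 genes with the largest change in pooled WT past the threshold, up to 3 in the untreated comparison whose KO1 and KO2 means both lay beyond the range of the WT clones, and the 3 genes most like Malt1. Other genes were named after their values were seen. Some genes of the lists are not reported here.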

Additional observations from a re-analysis of the deposited data

Results flagged for a closer look

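In the 9 untreated WT libraries Rela was highest in WT1 library c, with a gap to the next library of 0.549 of the whole range. In the 9 IFNG-treated WT libraries Bcl10 was highest in WT1 library c, with a gap of 0.517 of the range. In all, 40 groups of 4 to 10 libraries were tested, and chance flags about 1 in 20.

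The KO minus WT difference of the IFNG response was -0.80 on the log2 scale for Malt1 and 0.63 for Nfkbiz. That contrast was used in picking the genes, so both values are descriptions. Also flagged was the IFNG response among the 3 WT clones for Nfkbia (adjusted p = 0.000712) and Tnfaip3 (adjusted p = 9.49e-05). The IFNG response of each clone was used in choosing the genes. These adjusted p-values, from edgeR's quasi-likelihood test, are thus printed as flagged values only, and no difference is read from them.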

How the results depend on the processing

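No paired analysis was possible because the columns carry no replicate number, so the planned replicate block and the planned omission of 1 replicate number from every group were not run. The counts below are of the 10 genes past the threshold, and where a count moved the cause was not tested. Those of the IFNG contrasts are descriptions. With clone as a block the pooled WT response count was 8 (5 without it). Without the filter on low counts it was 0 for untreated KO1 against WT (1 with it), 5 for the KO minus WT difference (2 with it) and 5 for the response among WT clones (2 with it). For KO against WT after IFNG it was 7 by DESeq2 and 0 with counts summed per clone (4 in the main test). Leaving out 1 library, the count ran from 3 to 7 for the response in WT1, from 7 to 9 in WT2, from 6 to 9 in WT3, from 4 to 6 in KO2 and from 2 to 4 for the response among WT clones, and was 8 throughout in KO1. Leaving out 1 clone, it ran from 2 to 8 in pooled WT, from 4 to 8 in pooled KO, from 0 to 7 for untreated KO against WT, from 1 to 8 after IFNG and from 1 to 4 for the KO minus WT difference. Leaving out 1 library or WT clone, it ran from 0 to 6 for untreated KO1 and from 0 to 7 for untreated KO2 against WT.

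Among the values given with a test, directions turned for 17, none of them past the threshold in the main test. In untreated KO against WT, leaving out 1 clone gave Nfkbia from -0.28 to 0.73, Nfkbiz from -0.73 to 0.39 (0.24 without KO1), Malt1 from -0.035 to 0.50 and Bcl10 from -0.046 to 0.024, and Bcl10 was 0.000283 without the filter. In KO1 against WT, Nfkb1 ran from -0.026 to 0.017 and was 0.0043 without the filter, and Nfkbia was 0.087 with chromosome 12 scaling. In KO2 against WT, Relb ran from -0.015 to 0.40, Malt1 from -0.090 to 0.44 and Bcl10 from -0.012 to 0.059. Nfkbie in KO1 against KO2 ran from -0.0081 to 0.15. Among the values given as descriptions, leaving out 1 clone also turned 7, none past the threshold. These ran from -0.11 to 0.12 for Nfkb2, from -0.13 to 0.10 for Relb and from -0.03 to 0.52 for Nfkbie in the KO minus WT difference, from -0.03 to 0.30 for Nfkbia in pooled WT, from -0.035 to 0.13 for Rela and from -0.057 to 0.069 for Bcl10 in pooled KO (also below 0 without the filter), and from -0.043 to 0.055 for Nfkb1 in KO against WT after IFNG.

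Over all genes, the number called in the KO minus WT difference was 151, but 384 without the filter, 564 without WT1, 37 without WT2, 82 without WT3 and 21 without KO1. In untreated KO against WT it was 3689, but 6472 without WT1, 1674 without KO1 and 1 with counts summed per clone. After IFNG it was 3258, but 5992 without WT1, 1411 without KO1 and 1 summed per clone. In pooled WT it was 3840, and 6190 with clone as a block. Among WT clones it was 330 for the response, and 578 without the filter. KO1 against WT gave 3658, but 8896 with chromosome 12 scaling, 7053 without WT1 and 2339 to 2359 without 1 KO1 library. KO1 against KO2 gave 3207, but 10509 with chromosome 12 scaling. KO2 against WT gave 1674, but 5625 without WT1 and 825 to 854 without 1 KO2 library. Genes with low counts were not tested, so that 52 of the 59 other pathway genes were tested in pooled WT.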
